A study of Homo sapiens with 9 samples.

Results

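The 10 genes described here make or recycle the building blocks of DNA and RNA: CAD, DHODH and UMPS of pyrimidine synthesis, IMPDH1, IMPDH2 and GMPS of guanine nucleotide synthesis, RRM1 and RRM2 of ribonucleotide reductase, and the salvage kinases DCK and TK1. They were taken by gene symbol from a table of 78986 genes, as genes described elsewhere as gain-of-function targets of mutant p53, and all 10 were found and passed the filter on low counts in every comparison. RNA was sequenced from stable HEK293T lines, human embryonic kidney cells, in 3 biological replicates for each of WT, G245S and R273H p53. The labels give each genotype as overexpression of that form, and no group without added p53 is among the libraries. Each line was made by lentiviral transduction of HEK293T cells and kept in puromycin, so all groups share the vector selection and the background of a line that carries SV40 large T antigen, which binds p53. The 2 mutations lie in the DNA-binding domain of p53. Each form of p53 is represented by 1 transduced line, so a difference between forms and a difference between lines cannot be told apart.

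Cells obtain nucleotides by building them from small precursors (de novo synthesis) or by phosphorylating nucleosides (salvage). Ribonucleotide reductase then turns ribonucleotides into the deoxyribonucleotides that DNA replication consumes, and several of these genes, RRM2 and TK1 among them, are known to rise as cells enter S phase. Mutant p53 has been described as raising such genes together with the transcription factor ETS2, whereas WT p53 acts on many cell cycle genes through p21, the product of CDKN1A. The comparison therefore addresses whether mRNA levels of nucleotide genes were higher with an overexpressed mutant than with overexpressed WT p53. An effect of the mutant and the absence of added WT p53 cannot be told apart in it.

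They were not detectably higher. None of the 10 genes passed an adjusted p of 0.05 in G245S against WT, in R273H against WT or in R273H against G245S, by the quasi-likelihood test of edgeR, adjusted by Benjamini-Hochberg over all genes tested. DESeq2 called none of the 10 either. The share of all tested genes called was small as well, at 0.126% (20 of 15893) in G245S, 0.137% (22 of 16022) in R273H and 0% (0 of 15614) between the mutants, where 741 genes had an unadjusted p under 0.05 and DESeq2 called 1. The members' count of 0 is thus near the background. No interval of any member reached a doubling or a halving: the 95% intervals of the log2 fold change ran from −0.48 to 0.49 over the 10 genes in G245S and from −0.43 to 0.36 in R273H. The genes with the lowest estimates were RRM1 and RRM2 in G245S and RRM1 and IMPDH2 in R273H, and those with the highest were DCK in G245S and IMPDH1 in R273H.

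The libraries held between 7325514 and 9667306 counts, except WT replicate 3, which held 1486315 and was left out of the fits for its depth. The unit of all levels is CPM, deduplicated counts relative to the TMM-adjusted total of their library, and the floor of 3 counts was 0.306 to 0.41 CPM in fitted libraries and 2.11 CPM in WT replicate 3. The 10 genes together took between 0.0919% and 0.105% of the counts of a fitted library. WT replicate 3 stood apart: among the 10 genes it lay above all 8 other libraries for CAD and DCK and below all 8 for IMPDH1, IMPDH2, GMPS and TK1, and the epithelial keratins KRT8 and KRT18 were 5.08 and 2.55 times their mean in the other WT libraries. Each member is therefore given with this library named, and group means are over 2 WT, 3 G245S and 3 R273H libraries. MDM2, a direct p53 target, was lower in both mutants, and stood at 82.0 ± 3.80 CPM (SD, n = 2) in WT, 46.1 ± 1.80 (SD, n = 3) in G245S and 43.8 ± 2.18 (SD, n = 3) in R273H. On the log2 scale the mutants differed from WT by −0.82 (adjusted p = 0.000848 in edgeR) and −0.90 (adjusted p = 0.000228 in edgeR). With WT replicates 1 and 3 as the controls, they were −0.69 (adjusted p = 0.136 in edgeR) and −0.77 (adjusted p = 0.0642 in edgeR). CDKN1A was at 16.7 ± 2.52, 9.66 ± 2.11 and 12.6 ± 1.39 CPM, a log2 difference of −0.79 (adjusted p = 0.206 in edgeR) and −0.41 (adjusted p = 0.685 in edgeR). CDKN1A passed in G245S with no filter on low counts (adjusted p = 0.000377 in edgeR) and with the replicate block (adjusted p = 0.000623 in edgeR). Of the markers checked, CDH2, KRT8, KRT18, PAX2 and LHX1 were detected, PAX8 was at or below 0.23 CPM, CD3E was at 0 in all 9 libraries, and PTPRC, CDH5 and DCN were at or below 0.957 CPM in the fitted ones. PECAM1 and ALB were at 0 in all WT and G245S fitted libraries. COL1A1 and COL1A2, fibroblast collagens, were present. COL1A1 was at 20.7 ± 3.43 CPM (SD, n = 2) in WT, 18.0 ± 4.76 (SD, n = 3) in G245S and 27.8 ± 8.22 (SD, n = 3) in R273H, and COL1A2 at 21.8 ± 8.75, 18.4 ± 8.96 and 36.4 ± 14.6. Their estimates were above 0 in R273H, by 0.42 and 0.74 on the log2 scale against WT (adjusted p = 0.794 and 0.716 in edgeR) and by 0.62 and 1.00 against G245S (adjusted p = 0.921 for each in edgeR), with overlapping libraries in each case. Their part in the results below was not tested.

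In GRCh38 coordinates of the deposited table, CAD lies at chr2:27217369-27243943, DHODH at chr16:72008588-72027664, UMPS at chr3:124730433-124749273, GMPS at chr3:155870650-155944020, RRM1 at chr11:4094707-4138932, RRM2 at chr2:10120698-10211725 and DCK at chr4:70992538-71030914, all on the plus strand. IMPDH1 lies at chr7:128392277-128409986, IMPDH2 at chr3:49024325-49029447 and TK1 at chr17:78172780-78187233, on the minus strand. All 10 are protein-coding and overlapped the GENCODE gene of the same identifier.

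The promoters of the 2 reductase genes and of TK1, whose estimates against WT were among the lowest of the set, are shown by those CCAAT boxes that lie nearest a start, a sequence bound by the factor NF-Y. RefSeq promoter windows of GRCh38.p14, 250 bases before to 50 after a start, were found for 9 of the 10 genes (11 windows), and IMPDH2 had none in the table used. Each line gives 30 bases around a match, 5′ to 3′ on the gene's strand, with CCAAT or its reverse complement in capitals.
RRM2 (chr2:10122604-10122633, plus strand): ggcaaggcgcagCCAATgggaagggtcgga
RRM2 (chr2:10122634-10122663, plus strand): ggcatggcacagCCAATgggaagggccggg
RRM2 (chr2:10122661-10122690, plus strand): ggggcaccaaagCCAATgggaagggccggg
TK1 (chr17:78187112-78187141, minus strand): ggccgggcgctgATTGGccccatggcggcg
TK1 (chr17:78187081-78187110, minus strand): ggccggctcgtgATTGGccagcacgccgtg
RRM1 (chr11:4094645-4094674, plus strand): gcatgtccatatCCAATggggcccatggga

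A further RRM2 match, not shown, lay 249 bases before the start of its other window. The first bases of the matches shown lay 123, 93 and 66 bases before the start in RRM2, 77 and 46 before it in TK1 and 28 before it in RRM1. The RRM2 and TK1 matches fall in exons of longer transcripts in the deposited gene models, and the RRM1 match lies outside its model. CCAAT, searched on both strands, was in 6 of the 11 member windows and in 34.6% of all 35116 windows. The other members with a match, not shown, were DHODH (22 bases before its start) and CAD (250 bases before its start). CAD had log2 fold changes of 0.10 in G245S and −0.01 in R273H. The genes shown were picked by their estimates, and any relation of matches to estimates was not tested. The E-box CACGTG, a sequence bound by MYC, was in DCK and DHODH (7.3% of all windows), and TTTGAA, the core of the cell cycle homology region, was in RRM1 and UMPS (15.2%). The E2F spellings TTTCGCGC, TTTGGCGC and TTTCCCGC were found in DCK (2.7%), and the ETS spelling CCGGAAGT in no member window (4.1% of all windows). Matches of different motifs did not share bases in the member windows. These are matches of letters in 1 window a start and say nothing about binding.

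**Figure D1:**
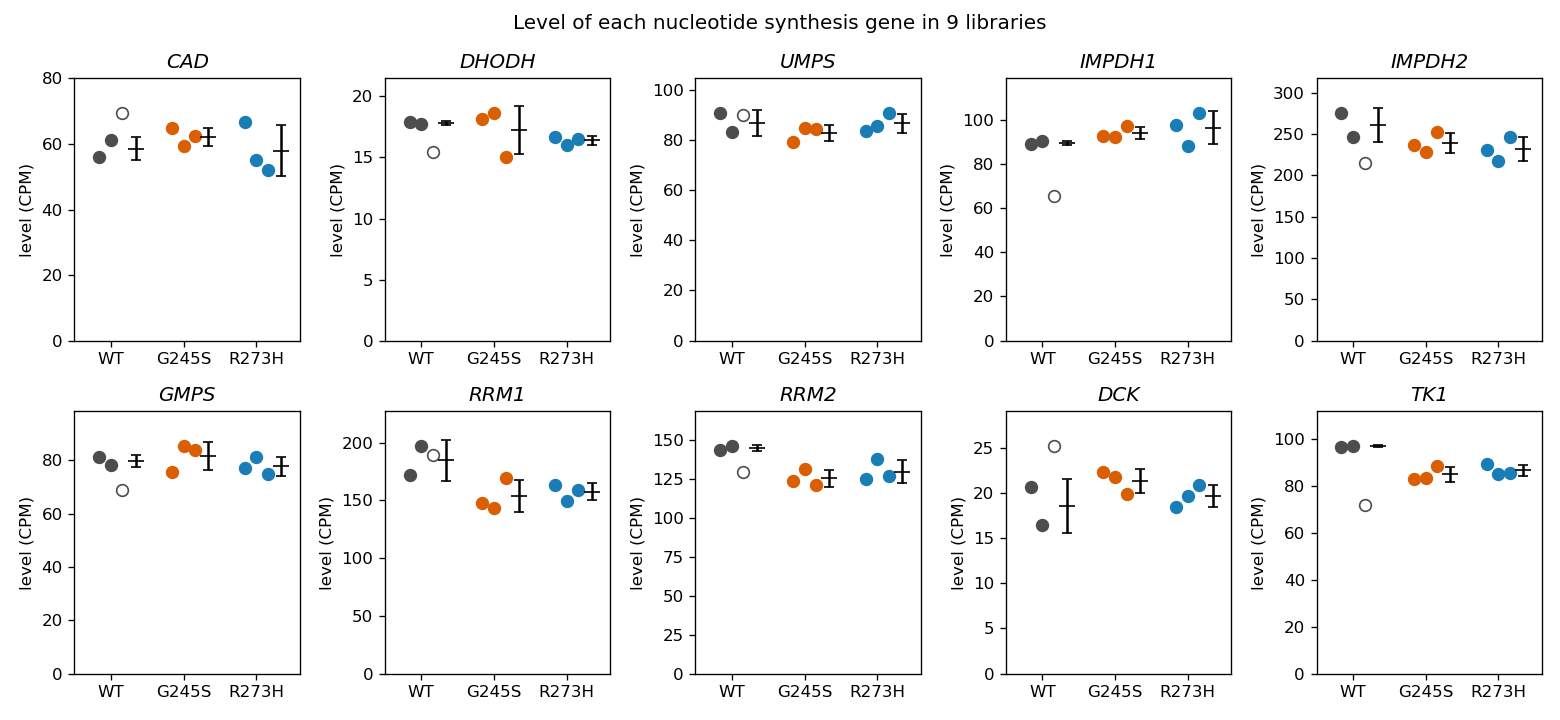
TMM-scaled level (CPM, linear axis from 0) of each of the 10 genes in the 9 libraries, by p53 form. Points are libraries, the open point is WT replicate 3, and the bar with caps is the mean ± SD of the fitted libraries (2 WT, 3 G245S, 3 R273H). RRM1, RRM2 and TK1 sit lower in both mutants than in the 2 fitted WT libraries, while the other genes overlap or differ in only 1 mutant.

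RRM1, the large catalytic subunit of ribonucleotide reductase, was at 172.3 and 197.5 CPM in WT replicates 1 and 2 and at 189.1 in replicate 3. Cells with G245S were at 148.0, 143.8 and 169.6 CPM, and those with R273H at 163.6, 149.8 and 159.2. All 6 mutant libraries were thus below all 3 WT libraries, the left-out one included. The share of all genes that met this rule was not counted. Against the fitted WT libraries alone, 10.8% of all genes in G245S and 10.5% in R273H were lower without overlap. The log2 fold change was −0.26 (standard error 0.101, 95% interval −0.48 to −0.04) in G245S, with an adjusted p of 0.684 from edgeR, and −0.23 (standard error 0.0927, 95% interval −0.43 to −0.03) in R273H, with an adjusted p of 0.76 from edgeR. The unadjusted p-values of edgeR were 0.0233 and 0.027, so RRM1 did not pass once all genes were taken into account.

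RRM2, the small subunit whose level is known to limit the enzyme in S phase, was at 143.9 and 146.7 CPM in the fitted WT libraries and at 130.0 in replicate 3. In G245S it was at 123.6, 131.9 and 121.1 CPM, and the R273H libraries at 124.9, 138.3 and 126.9. The mutants lay below the fitted WT libraries and overlapped with WT replicate 3. RRM2 had a log2 fold change of −0.20 (95% interval −0.39 to −0.02) in G245S and −0.16 (95% interval −0.34 to 0.03) in R273H, with edgeR's adjusted p of 0.725 and 0.909. RRM2 took 44.1% ± 2.05 (SD, n = 2) of the counts of the subunit pair in WT, 45.0% ± 3.13 (SD, n = 3) in G245S and 45.2% ± 2.49 (SD, n = 3) in R273H. The shares overlapped between the groups. With all 3 WT libraries, the difference was 2.05 percentage points in G245S (exact permutation test, two-sided p = 0.5) and 2.26 in R273H (exact permutation test, two-sided p = 0.4), but 3 against 3 libraries cannot go below 0.1, so this test could not have passed at any size of difference.

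TK1, the cytosolic thymidine kinase that salvages thymidine in dividing cells, was at 96.7 and 97.1 CPM in the fitted WT libraries and at 71.7 in replicate 3. In G245S TK1 was at 83.1, 83.2 and 88.6 CPM, and the R273H libraries at 89.3, 85.0 and 85.4. The fitted WT libraries lay above all mutant libraries, but WT replicate 3 lay below all of them, and over all alternatives the estimates ran from −0.215 to −0.035 in G245S and from −0.185 to −0.016 in R273H. TK1 had a log2 fold change of −0.18 (95% interval −0.37 to 0.001) in G245S and −0.16 (95% interval −0.34 to 0.02) in R273H, with edgeR's adjusted p of 0.751 and 0.883. With all 8 fitted libraries, TK1 and RRM1 had the highest correlation of the 45 member pairs, Pearson's r of 0.911 over 8 libraries, against a median of 0.0549 and a range from −0.82 to 0.911. The 8 libraries share the groups and the scaling, and no test was made.

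DCK, deoxycytidine kinase, which also activates nucleoside drugs such as cytarabine and gemcitabine, was at 20.7 and 16.5 CPM in the fitted WT libraries and at 25.3 in replicate 3. DCK in G245S was at 22.4, 21.8 and 19.9 CPM, and the R273H libraries at 18.4, 19.7 and 20.9. All groups overlapped, and the WT libraries spanned the widest range. DCK had a log2 fold change of 0.21 (95% interval −0.07 to 0.49) in G245S and 0.08 (95% interval −0.20 to 0.36) in R273H, with edgeR's adjusted p of 0.804 and 0.995. With WT replicates 1 and 3 as the controls, the estimates were −0.03 and −0.15.

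CAD, the enzyme that carries out the opening steps of pyrimidine synthesis, was at 56.1 and 61.2 CPM in the fitted WT libraries, at 64.8, 59.3 and 62.4 in G245S and at 66.8, 55.1 and 52.1 in R273H. WT replicate 3 was at 69.6 CPM, above every other library. The log2 fold change was 0.10 (95% interval −0.10 to 0.29) in G245S and −0.01 (95% interval −0.24 to 0.22) in R273H, with edgeR's adjusted p of 0.902 and 0.999. UMPS, which completes UMP, was at 90.6 and 83.3 CPM in the fitted WT libraries and at 89.97 in replicate 3, at 79.2, 84.9 and 84.5 in G245S and at 83.5, 85.6 and 90.9 in R273H. Its groups overlapped, with log2 fold changes of −0.06 (95% interval −0.25 to 0.13) and −0.003 (95% interval −0.19 to 0.19). As a fold, the interval of UMPS was 0.839 to 1.09 in G245S and 0.876 to 1.14 in R273H.

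DHODH, the mitochondrial enzyme of the pathway, had the lowest mean CPM of the members in each group. It was at 17.9 and 17.7 CPM in the fitted WT libraries and at 15.5 in replicate 3. In WT replicate 2, DCK was lower, at 16.45 CPM. The G245S libraries were at 18.1, 18.7 and 15.0 CPM, and the R273H libraries at 16.7, 16.0 and 16.5. The R273H libraries lay below the fitted WT libraries and the G245S libraries overlapped with them. The log2 fold change was −0.04 (95% interval −0.32 to 0.25) in G245S and −0.12 (95% interval −0.37 to 0.13) in R273H. DHODH, with 117 to 178 counts per fitted library, and DCK had the widest intervals of the set.

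IMPDH1 and IMPDH2 are paralogous enzymes that commit IMP to guanine nucleotides. IMPDH1 was at 89.0 and 90.2 CPM in the fitted WT libraries and at 65.4 in replicate 3, at 92.5, 92.0 and 97.3 in G245S and at 97.7, 88.3 and 103.2 in R273H. It was the member that did not overlap upward, in G245S. The log2 fold change was 0.08 (95% interval −0.11 to 0.26) in G245S and 0.11 (95% interval −0.09 to 0.31) in R273H, with edgeR's adjusted p of 0.92 and 0.97. IMPDH2 was at 276.0 and 246.7 CPM in the fitted WT libraries and at 214.4 in replicate 3, at 236.4, 227.8 and 252.1 in G245S and at 230.7, 217.6 and 246.8 in R273H. Its groups overlapped, with log2 fold changes of −0.12 (95% interval −0.33 to 0.08) and −0.17 (95% interval −0.37 to 0.03). With WT replicates 2 and 3 as the controls, the estimates were 0.04 and −0.003.

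The counts of IMPDH2 are uncertain, because 1680 bases of its exons also belong to another gene on the same strand. That is 32.8% of its counted length, but this length of 5123 bases is the whole span of IMPDH2, not a spliced transcript. The other gene, ENSG00000290315 (chr3:49024345-49094071), extends beyond IMPDH2 and is called the readthrough gene here. That gene held between 112% and 116% of the counts of IMPDH2 in each library. With the counts of both summed, the log2 fold changes of IMPDH2 were −0.12 and −0.16, close to those without. Both estimates had an adjusted p from edgeR of at least 0.882. In the deposited table, IMPDH2 took 75.6% and 73.2% of the counts of the IMPDH pair in the fitted WT libraries and 76.6% in replicate 3. The G245S libraries were at 71.9%, 71.2% and 72.2%, and the R273H libraries at 70.3%, 71.1% and 70.5%. All 3 WT libraries were above all 6 mutant libraries, a feature singled out after the values were seen. The difference with all 3 WT libraries was −3.4 percentage points in G245S and −4.53 in R273H, each with a two-sided p of 0.1 by exact permutation test, the smallest that 3 against 3 libraries allow. With the readthrough counts added to IMPDH2, the share was 85.3% to 87.5% in WT and 83.5% to 84.6% in the mutants.

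GMPS, which makes GMP from XMP, was at 81.4 and 78.1 CPM in the fitted WT libraries and at 68.9 in replicate 3. The G245S libraries were at 75.5, 85.6 and 84.0 CPM, and the R273H libraries at 77.0, 81.5 and 74.8. The groups overlapped, and the log2 fold changes were 0.04 (95% interval −0.16 to 0.23) and −0.04 (95% interval −0.22 to 0.15). GMPS shares reads with its processed pseudogene GMPSP1, which was at 30.4 ± 1.12 CPM (SD, n = 2) in WT, 36.4 ± 3.85 (SD, n = 3) in G245S and 36.4 ± 3.74 (SD, n = 3) in R273H. Against WT it differed by 0.26 on the log2 scale in each (adjusted p = 0.704 in edgeR for G245S and 0.775 for R273H). GMPSP1 took 27.7%, 27.4% and 28.9% of the counts of the pair in WT, 30.1%, 31.9% and 30.3% in G245S and 33.4%, 32.1% and 30.03% in R273H. All 6 mutant libraries were above all 3 WT libraries, with differences of 2.8 and 3.85 percentage points and a two-sided p of 0.1 by exact permutation test in each. Over the 3 shares tested in 2 mutants, no adjusted value could pass the threshold, since the design cannot reach 0.05 before adjustment. The other pseudogenes of members held at most 16.5 counts over all 9 libraries.

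**Figure D2:**
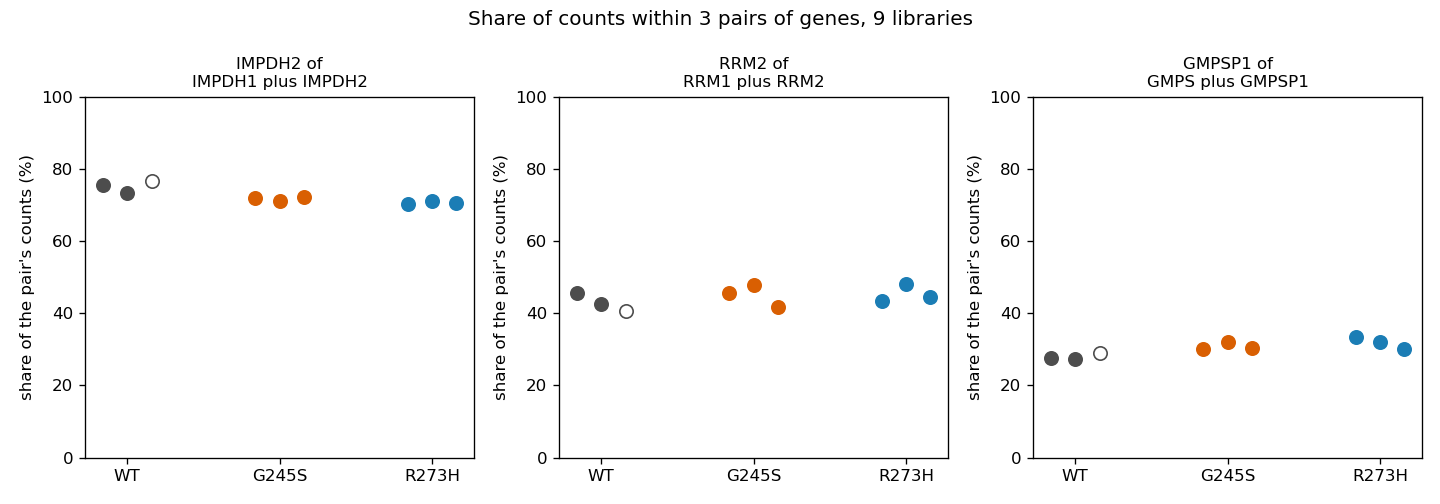
Share of counts (%) of the first gene in each of 3 pairs, IMPDH2 with IMPDH1, RRM2 with RRM1 and GMPSP1 with GMPS, one point a library, open for WT replicate 3. The IMPDH2 share is higher and the GMPSP1 share lower in all 3 WT libraries than in the 6 mutant libraries, while the RRM2 share overlaps.

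**Figure D3:**
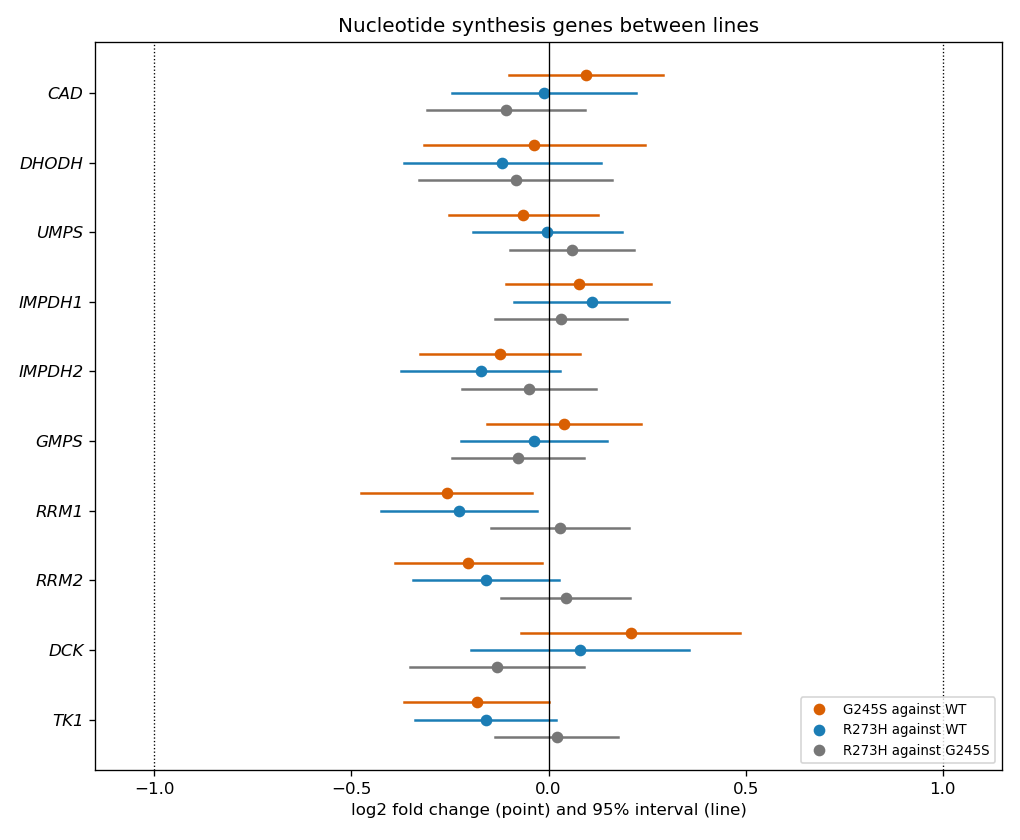
Log2 fold change (point) with 95% interval (line) of the 10 genes in each comparison, with dotted lines at a halving and a doubling. Every interval lies between these lines, and the intervals of RRM1 in both mutants and of RRM2 in G245S lie below 0 before adjustment.

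Read as a set, the members were split. Against WT, G245S had 4 members above 0 and 6 below it, with a median log2 fold change of −0.05 beside 0.003 over all genes tested. Without WT replicate 1 this median was −0.01. R273H had 2 above and 8 below, with a median of −0.08 beside 0.002 over all genes, and without R273H replicate 1 it was −0.13. Both comparisons use the same 2 WT libraries, so their shared signs are not independent. An unadjusted p under 0.05 was found for 2 members in G245S (RRM1 and RRM2), where 6.66% of all genes had one, for 1 in R273H (RRM1), where 6.11% had, and for 0 between the mutants, where 4.75% had. Libraries did not overlap for 1 member higher (IMPDH1) and 3 lower (RRM1, RRM2 and TK1) in G245S, beside 11.3% and 10.8% of all genes. They did not overlap for 0 higher and 4 lower (DHODH, RRM1, RRM2 and TK1) in R273H, beside 10.2% and 10.5% of all genes. R273H and G245S overlapped for all 10 members, where 4.65% of genes were higher and 4.36% lower without overlap. There, 5 members were higher and 5 lower in R273H, from −0.13 for DCK to 0.06 for UMPS, with a median of −0.01 and intervals from −0.35 to 0.22. All 10 had an adjusted p of 0.994 from edgeR.

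Levels were compared between genes per kilobase of counted length, over the 8 fitted libraries and under the assumption, not tested, that reads spread over that length. The counted length takes in every annotated exon, and for IMPDH2 it is the whole span of the gene. The order of the genes therefore depends on the annotation. IMPDH2 was the highest at 47.2 ± 3.51 CPM per kb (SD, n = 8), and RRM1 followed at 38.5 ± 4.09. Their ranges overlapped, and the readthrough counts of IMPDH2 are not in this value. TK1 (28.1 ± 1.78) and IMPDH1 (27.6 ± 1.52) overlapped with each other and were apart from RRM1. RRM2 (14.4 ± 1.06), UMPS (11.4 ± 0.515) and GMPS (9.09 ± 0.453) were each apart from the next, CAD (7.07 ± 0.600) and DCK (6.46 ± 0.615) overlapped, and DHODH (2.47 ± 0.179) was lowest. The genes most like the members' mean log2 level, among 11622 compared over 8 libraries, were CDC27 (Pearson's r of 0.963), GPRIN1 (0.956) and EIF4B (0.956), given as a description without a test.

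Of 53 other genes of nucleotide metabolism, 52 were tested against WT and none passed in either mutant. The median log2 fold change was 0.005 in G245S, with 27 genes above 0 and 25 below it. In R273H it was 0.03, with 31 above and 21 below. TYMS, thymidylate synthase and the target of 5-fluorouracil, had the smallest adjusted p of the list. It was at 142.2, 132.0 and 126.5 CPM in the 3 WT libraries, the last of them replicate 3. The G245S libraries were at 97.7, 108.1 and 102.9 CPM, and the R273H libraries at 103.1, 100.0 and 99.7. All mutant libraries were below all WT libraries, and the share of all genes that met this rule was not counted. Against the fitted WT libraries alone, 10.8% of all genes in G245S and 10.5% in R273H were lower without overlap. The log2 fold change of TYMS was −0.41 (standard error 0.0885) in G245S, with an adjusted p of 0.174 from edgeR. In R273H it was −0.44 (standard error 0.0846), with an adjusted p of 0.072 from edgeR. TYMS passed the threshold under other settings: in G245S with no filter on low counts (adjusted p = 0.024 in edgeR), and in R273H with no filter (adjusted p = 0.00521 in edgeR), with DESeq2 (adjusted p = 0.0184) and with all 3 groups in 1 fit (adjusted p = 0.0484 in edgeR).

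Among genes of the list at 5 CPM or more, the low estimates included SHMT2, which supplies one-carbon units in mitochondria, and TK2, the mitochondrial thymidine kinase. SHMT2 was at −0.18 in G245S and −0.22 in R273H on the log2 scale, and TK2 at −0.11 and −0.36, and neither passed. The 3 highest in G245S, at 5 CPM or more, were SLC29A2, an equilibrative nucleoside transporter, at 0.35 (0.26 in R273H), ADK, adenosine kinase, at 0.19 (0.11 in R273H), and PFAS of purine synthesis at 0.17 (0.03 in R273H). Those highest in R273H by the same limit were SLC29A2, NT5C2 and AMPD2. On the log2 scale AMPD2, an AMP deaminase, was at 0.13 in G245S and 0.17 in R273H, and NT5C2, a cytosolic nucleotidase, at 0.14 and 0.19. By role, all 4 one-carbon genes had estimates below 0 in both mutants (medians −0.06 and −0.09), and 6 of the 8 genes of de novo purine synthesis had estimates above 0 in each (medians 0.04 and 0.02). None of these genes passed the test. Over all genes tested, 7820 of 15893 estimates were below 0 in G245S and 7903 of 16022 in R273H. With WT replicate 3 included, only SHMT2 of the one-carbon genes kept a WT mean above both mutant means (147 against 133.5 and 130.3 CPM). The WT mean of MTHFD1L was then below both (82.69 against 87.45 and 86.72 CPM). RRM2B, the p53-inducible subunit of ribonucleotide reductase, was named after its values were seen, and stood at −0.09 and −0.03 on the log2 scale.

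**Figure D4:**
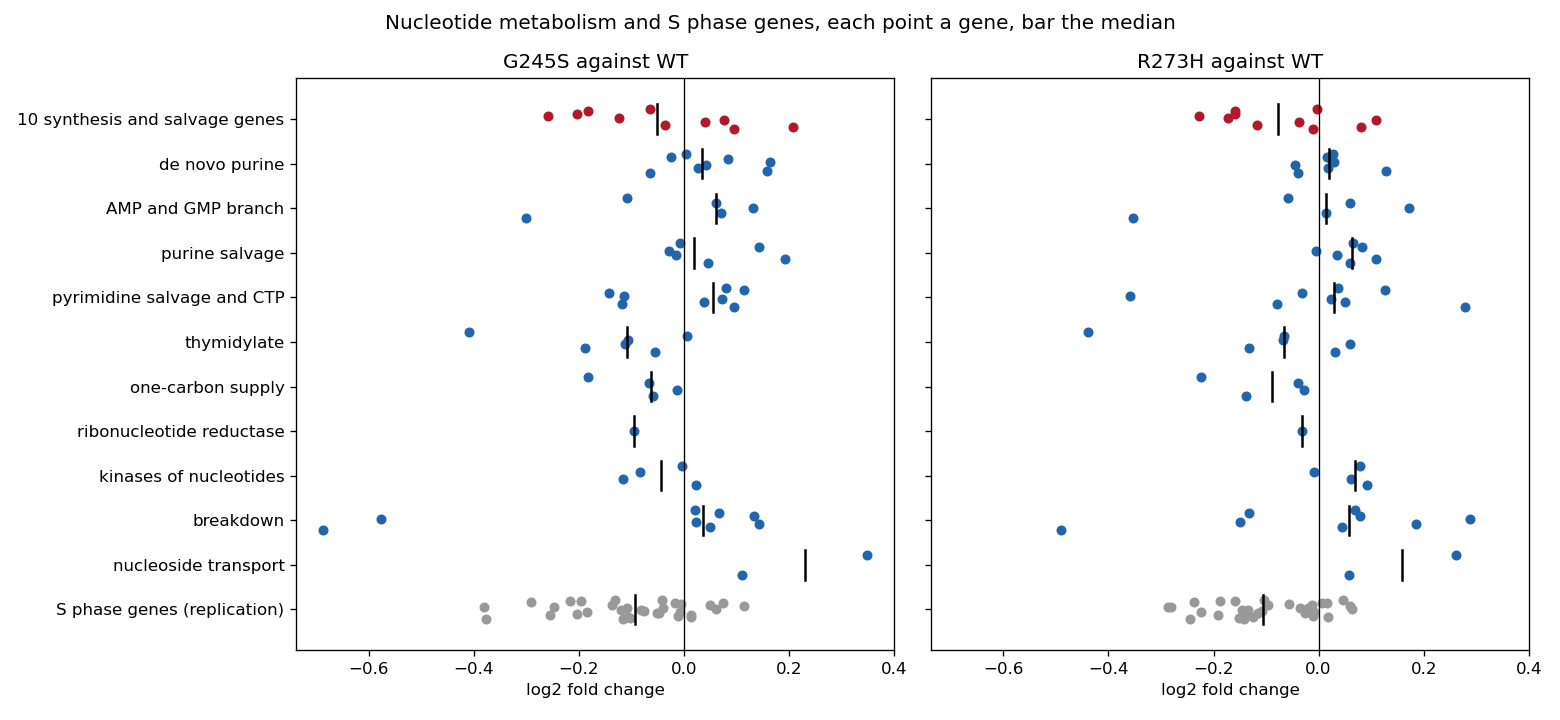
Log2 fold change of each mutant against WT, one point a gene and a black bar for the median, for the 10 members (red), the other nucleotide genes by role (blue) and 32 S phase genes (grey). Points sit on both sides of 0 in most roles, the lowest thymidylate point is TYMS, and the S phase medians are −0.09 in G245S and −0.10 in R273H.

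Of 15 regulators of nucleotide genes, among them MYC, the E2F factors, the RB family and ETS2, none passed in either mutant. ETS2 was at 17.7 ± 1.56 CPM (SD, n = 2) in WT, 16.3 ± 1.54 (SD, n = 3) in G245S and 15.8 ± 2.96 (SD, n = 3) in R273H. Its groups overlapped, with log2 fold changes of −0.11 (95% interval −0.39 to 0.17; adjusted p = 0.924 in edgeR) and −0.15 (95% interval −0.47 to 0.17; adjusted p = 0.976 in edgeR). Of 32 S phase genes that are no nucleotide enzymes, such as the MCM helicase subunits and PCNA, none passed either, and 26 had estimates below 0 in each mutant. Their median was −0.09 in G245S and −0.10 in R273H. Over all genes tested, 7820 of 15893 had estimates below 0 in G245S and 7903 of 16022 in R273H. Of the members, DHODH, UMPS, IMPDH2, RRM1, RRM2 and TK1 were below 0 in each mutant as well. Any link to the S phase genes was not tested. With all 3 WT libraries, the medians of the S phase genes were −0.02 and −0.06. In RNA from whole cultures, fewer cells in S phase and less RNA of these genes per cell cannot be told apart.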

How the data were processed

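The authors filtered reads with fastp 0.24.0, aligned them to GRCh38 with STAR 2.7.11, collapsed duplicates by molecular identifier and counted reads with featureCounts of Subread 2.1.1, strand-specifically and with multi-mapping reads shared as fractions. The authors deposited the resulting estimated counts, not normalized, for 9 libraries, together with the counted length of each gene, which served only for levels per kilobase. Another 9 columns of per-library CPM were not used.

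Counts were rounded to whole numbers, and WT replicate 3 was left out for a depth under 4096044 counts, a limit set at 0.5 of the median total of the other 8 libraries. Each pair of groups was fitted with edgeR 4.0.16 (R 4.3.3) and its quasi-likelihood test (filterByExpr, TMM, Benjamini-Hochberg over all genes tested, threshold 0.05). Intervals are 95% intervals of the log2 fold change, and floors of 3 counts cover counting error only. The test was tried on simulated data with changes larger than any member's estimate, so that trial does not cover changes of the members' size. DESeq2 1.42.0, other scalings, filters, sets of libraries and a replicate block were alternatives, and plots used matplotlib 3.10.9. The sums of IMPDH2 and GMPS counts with overlapping genes, and the IMPDH share with all WT libraries, were chosen after seeing the data.

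The members and gene lists were chosen with earlier results of these data known. Named genes are the members, CDKN1A, MDM2 and ETS2, list genes past the threshold, the 3 highest and 3 lowest nucleotide genes at 5 CPM or more in each mutant, the 3 genes most like the members' mean, and pseudogenes of members. Some genes that the rule names are not reported here.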

Additional observations from a re-analysis of the deposited data

How the results depend on the processing

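No member passed the threshold in any comparison under any alternative, and RRM1, RRM2 and TK1 kept estimates below 0 against WT in all 15 alternatives of each mutant. The median over the members lay between −0.086 and −0.01 in G245S and between −0.131 and −0.079 in R273H when 1 replicate was left out, and was −0.012 in both with WT replicates 2 and 3. For scale, the median log2 level of the members varied between replicates of a group with an SD of 0.0358. Other estimates changed sign, and the cause was not tested. With WT replicates 1 and 3 these were, in G245S, DHODH 0.003 and DCK −0.027, and in R273H GMPS 0.013 and DCK −0.153. With WT replicates 2 and 3 they were, in G245S, CAD −0.036, DHODH 0.013, IMPDH2 0.044, RRM2B 0.003, TK2 0.011 and NT5C2 −0.07, and in R273H UMPS 0.019, GMPS 0.054, RRM2B 0.069 and NT5C2 −0.02. In R273H, GMPS was 0.003 with all 3 WT libraries and 0.052 with GMPSP1 added, UMPS was 0.003 with upper-quartile factors, and with library size only CAD was 0.012 and UMPS 0.021.

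Leaving out 1 replicate gave, in G245S, −0.126 to 0.004 for UMPS, −0.246 to 0.006 for TK2 and −0.088 to 0.05 for DHODH. In R273H it gave −0.064 to 0.061 for UMPS, −0.094 to 0.039 for RRM2B, −0.13 to 0.064 for CAD, −0.073 to 0.261 for DCK and −0.027 to 0.103 for PFAS. Between the mutants it gave −0.019 to 0.103 for RRM1, −0.002 to 0.051 for TK1, −0.004 to 0.076 for RRM2 and −0.019 to 0.088 for IMPDH1. Deviations of same-numbered libraries correlated between −0.126 and 0.257, the highest for replicate 2 of the mutants. Not every pair was over 0.1, so the numbers were not taken to pair the libraries. This check cannot settle whether they do, since the 2 fitted WT libraries deviate from their mean by opposite amounts. With the replicate block 0 members passed, DHODH was 0.054 in G245S, and CAD was 0.058 and PFAS −0.002 in R273H, while the calls over all genes were 76, 47 and 59 in the 3 comparisons. With no filter on low counts the calls were 144, 93 and 125, against 20, 22 and 0, and DESeq2 called 18, 20 and 1. With 2 WT libraries fitted, the half-width of the members' intervals ran from 0.184 to 0.281 in G245S and from 0.179 to 0.276 in R273H.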
